A study of Mus musculus with 17 samples.

Results

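The genes described here are 10 members of the interleukin-1 (IL-1) family and the inflammasome in sorted mouse microglia, taken as a list of names: Il1a, Il1b, Il1rn, Il18, Il18bp, Nlrp3, Pycard, Casp1, Casp4 and Gsdmd. All 10 were found among the 41388 gene IDs of the count tables, and all 10 were among the 13060 genes with enough reads to be tested. IL-1 alpha and IL-1 beta are cytokines that start inflammation through a shared receptor, and IL-18 is a relative that acts through a receptor of its own. IL-1 beta and IL-18 are made as inactive precursors and cut by caspase-1, which is itself switched on inside inflammasomes, protein platforms built from a sensor such as NLRP3 and the adaptor ASC. In the brain, microglia are a main source of these cytokines, and because the precursors are cut after translation, RNA levels do not measure how much active cytokine is present.

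Microglia were sorted from C57BL/6 mice as CD45dim CD11b+ cells, and 17 libraries fell into 5 groups. The adult group held 3 libraries of unmanipulated adults, whose titles call the cells total microglia while another label field calls them CD11C negative. The methods list the purchased adult mice as females, without naming these libraries. The neonatal groups held 4 CD11c- and 4 CD11c+ libraries from mice of both sexes in the first postnatal week. The groups with experimental autoimmune encephalomyelitis (EAE), a model of multiple sclerosis, held 3 CD11c- and 3 CD11c+ libraries from adult females with symptoms after immunisation with a myelin oligodendrocyte glycoprotein peptide in Freund's adjuvant with Mycobacterium tuberculosis, together with pertussis toxin. Every library was a pool of mice, and the EAE groups carried the adjuvant and toxin that the adult group did not. The neonatal groups differed from the adult group in age and, if the adults were the purchased females, in the mix of sexes. These factors cannot be told apart from the condition. P-values measure the spread between pools.

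To show the DNA beside some of the members, the stretches just before 4 transcription starts were read from RefSeq (GRCm38.p6). The stretches are on the strand of their genes and cut back where an annotated exon began. They belong to Il1b, which rose most among the cytokines in EAE, to the neighbouring caspase genes Casp1 and Casp4, and to Nlrp3, which fell. Capitals mark matches to the NF-kB consensus, a pattern of 10 letters read on both strands; overlapping matches run together.
Il1b, chr2:129371140-129371389, minus strand: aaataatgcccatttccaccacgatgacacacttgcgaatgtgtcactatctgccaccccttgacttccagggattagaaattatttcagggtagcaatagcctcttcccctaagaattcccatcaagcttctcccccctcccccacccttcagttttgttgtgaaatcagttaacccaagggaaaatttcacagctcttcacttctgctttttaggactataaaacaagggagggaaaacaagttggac
Casp1, chr9:5298267-5298516, plus strand: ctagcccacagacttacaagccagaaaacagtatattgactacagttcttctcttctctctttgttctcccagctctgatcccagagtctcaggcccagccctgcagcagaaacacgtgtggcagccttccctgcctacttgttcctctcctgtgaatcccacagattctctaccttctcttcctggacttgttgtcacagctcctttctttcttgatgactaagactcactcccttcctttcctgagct
Casp4, chr9:5308599-5308827, plus strand: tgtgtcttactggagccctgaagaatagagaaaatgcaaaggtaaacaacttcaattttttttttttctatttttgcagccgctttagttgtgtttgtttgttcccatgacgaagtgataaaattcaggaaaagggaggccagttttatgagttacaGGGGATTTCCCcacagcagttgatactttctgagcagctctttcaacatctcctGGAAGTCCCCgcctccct
Nlrp3, chr11:59541319-59541567, plus strand: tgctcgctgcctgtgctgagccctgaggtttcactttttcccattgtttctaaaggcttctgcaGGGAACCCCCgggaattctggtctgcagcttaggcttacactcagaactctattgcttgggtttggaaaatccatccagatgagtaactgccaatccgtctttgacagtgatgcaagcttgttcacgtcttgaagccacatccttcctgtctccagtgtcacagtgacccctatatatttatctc
Windows were found for 9 members, 13 in all, and none for Gsdmd. Over the 250 bases before each start, the NF-kB consensus matched in 7.25% of 32851 windows of the genome, and among members it matched in both overlapping windows of Casp4 and in 1 of the windows of Nlrp3. Of the 4 matches in the printed Casp4 window, GGGGATTTCC and GGGATTTCCC overlap between 93 and 83 bases before the start, the latter matching on both strands, and GGAAGTCCCC lies 39 to 30 bases before it, matching on the minus strand. In the Nlrp3 window, GGGAACCCCC matched on both strands, 186 to 177 bases before the start. The core of the interferon-stimulated response element was held by 2.98% of windows and the gamma-activated site TTCNNNGAA by 7.02%, and neither occurred in a member's window. The only windows of Il18bp and Pycard lie wholly within annotated exons, so the absence there concerns exon sequence. The 3 patterns were chosen after the members' values were seen, and a match is a description of letters and not of a bound site.

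Totals ran from 5115489 to 10436066 counts, so that 3 counts corresponded to between 0.288 and 0.572 CPM (the usual count scaled to library size, here with TMM factors). All 13 microglial markers checked were detected in every group, but their level differed: against adults, neonatal CD11c- microglia had 6 of 13 called lower and 0 higher, neonatal CD11c+ 7 lower and 1 higher, EAE CD11c- 5 lower and 1 higher, and EAE CD11c+ 7 lower and 2 higher. Their sums were 45460 to 49580 CPM in adults and 26700 to 39310 in the other groups. The part of this in the members' values was not tested. The 8 T cell markers summed to at most 25.05 CPM in any library. That maximum was in neonatal CD11c+ microglia, where Cd4 alone had 7.18 to 24.7 CPM and 6 of the 8 were at 0 throughout. The sums were 6.65 to 9.88 CPM in EAE CD11c+ and 2.22 to 3.80 in EAE CD11c- microglia, against 1.57 to 1.84 in adults. Libraries 1 (EAE CD11c+), 16 (neonatal CD11c+) and 17 (neonatal CD11c-) stood apart from their groups: their median correlation with the other libraries of the group was 0.966, 0.978 and 0.962, and mitochondrial reads made up 2.23% of library 1 and 5.10% of library 17. Where leaving out these 3 libraries together changed a call of a member, the value without them is given beside the result. Calls of the other genes named below were not checked for leaving out libraries. In pooled RNA, fewer cells of a type and less RNA per cell cannot be told apart.

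A gene is called higher or lower when its adjusted p is at or under 0.01 by edgeR's quasi-likelihood test, with the Benjamini-Hochberg method over all 13060 genes tested. The calls were mostly higher in EAE and mostly lower in neonates relative to adults. In EAE CD11c- microglia 6 of the 10 members were called higher and 0 lower against adults, where 11.0% of all genes tested were called higher and 4.72% lower. In EAE CD11c+ microglia the counts were 6 higher and 1 lower, beside 15.1% and 11.1% of all genes. In neonatal CD11c- microglia 0 were called higher and 4 lower, beside 13.2% and 12.1%, and in neonatal CD11c+ microglia 1 higher and 3 lower, beside 18.0% and 15.3%. These 4 comparisons share the adult libraries and are not independent of each other. The median log2 fold change of the members was 0.79 for the CD11c- and 1.00 for the CD11c+ subset of EAE, against -0.01 over all genes tested in each case, and -0.41 and -0.45 in the neonatal CD11c- and CD11c+ groups, against -0.01 and -0.03. Without libraries 1, 16 and 17 the members called numbered 8 in each EAE group and, for neonates, 6 in the CD11c- and 7 in the CD11c+ subset. Nlrp3 and Gsdmd were added in EAE CD11c-, Gsdmd in EAE CD11c+, and Il1b and Gsdmd in neonatal CD11c-. In neonatal CD11c+ the additions were Nlrp3, Pycard and Gsdmd. The share of all genes called in that fit is not given here, so these counts have no background beside them.

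Between subsets of the same condition few members differed. CD11c+ exceeded CD11c- microglia in neonates for 2 members, Il1rn and Casp1, beside 5.44% of all genes called higher and 2.31% called lower. In EAE the CD11c+ libraries exceeded the CD11c- libraries for 1 member, Il18bp, beside 1.66% and 2.71%. Subsets had no overlap of libraries for 3 members in neonates, beside 2881 of all 13060 genes tested. In EAE this held for 3 members, beside 3239 of all genes tested. When the mean of the neonatal groups was set against the mean of the EAE groups, 9 members were lower and 0 higher in neonates, beside 17.4% and 16.9%; Nlrp3 was the member not called, at a log2 difference of 0.19 ± 0.11 (SE; adjusted p = 0.149). The test of whether the CD11c subset difference itself differed between neonates and EAE called 0 members, beside 1.43% of all genes higher and 0.107% lower; 2 of 10 members had an unadjusted p under 0.05, and DESeq2's Wald test called 1, Il1rn.

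**Figure D1:**
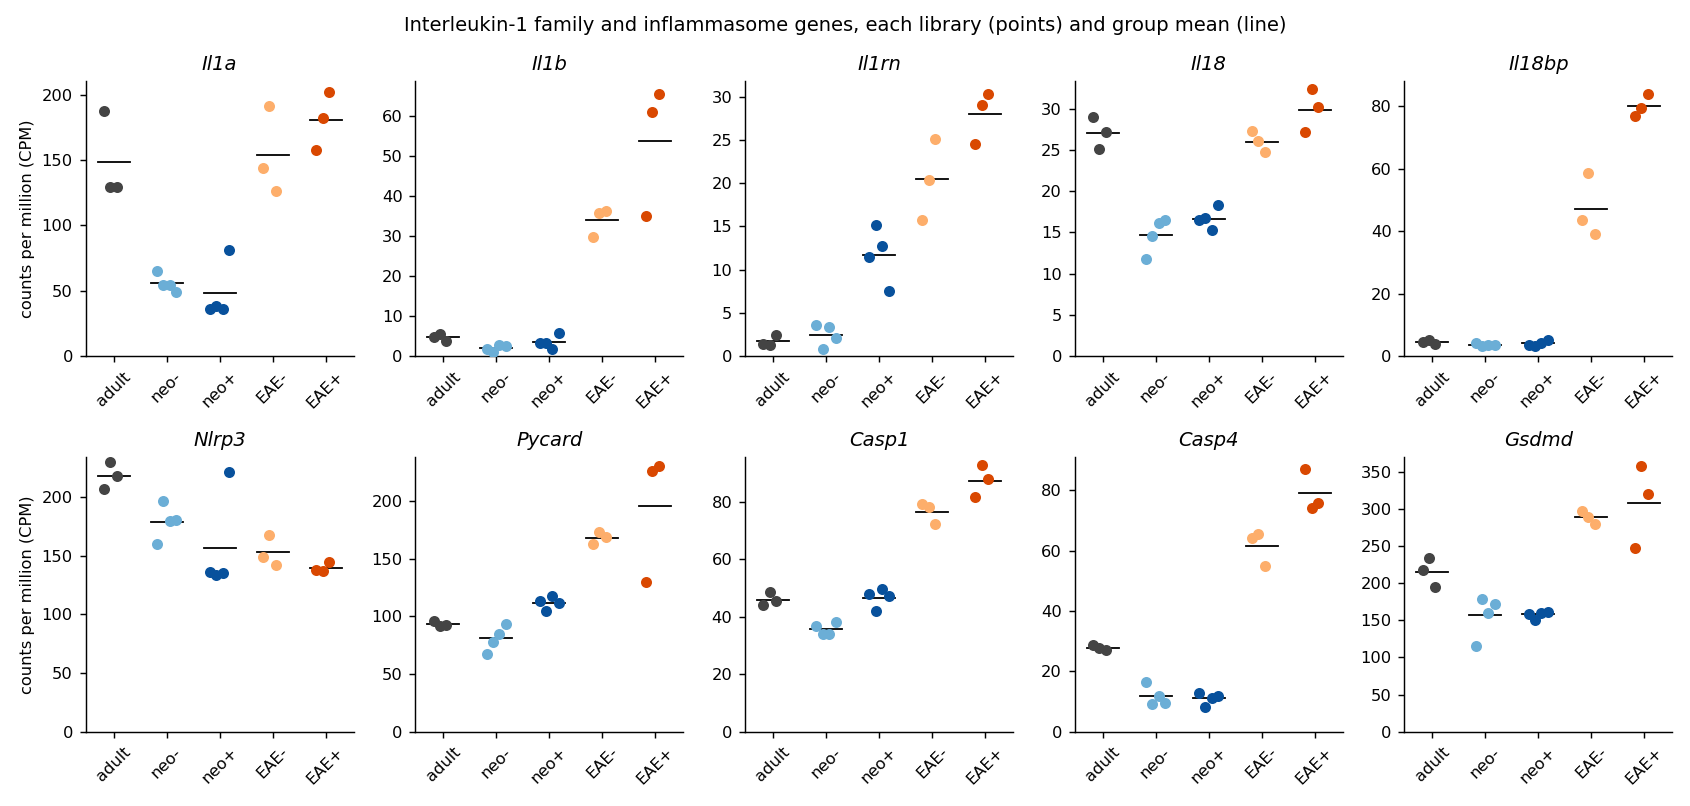
Level of each of the 10 genes in CPM (y axis, linear from 0) in every library (points) of the 5 groups, with the group mean as a line; neo and EAE are followed by the CD11c subset. Il1b, Il1rn, Il18bp, Pycard, Casp1, Casp4 and Gsdmd stand above adults in all 6 EAE libraries. Il1a, Il18, Casp4 and Gsdmd stand below adults in all 8 neonatal libraries. Counting each group alone and either direction, no overlap with adults was found for 7 members in neonatal CD11c- and 6 in neonatal CD11c+. It was found for 8 members in EAE CD11c- and 8 in EAE CD11c+. Of all 13060 genes tested, the same counts were 5500 and 7704 in the neonatal groups and 6921 and 6397 in the EAE groups, in that order. No count over all genes was made for the joint statements above.

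**Figure D2:**
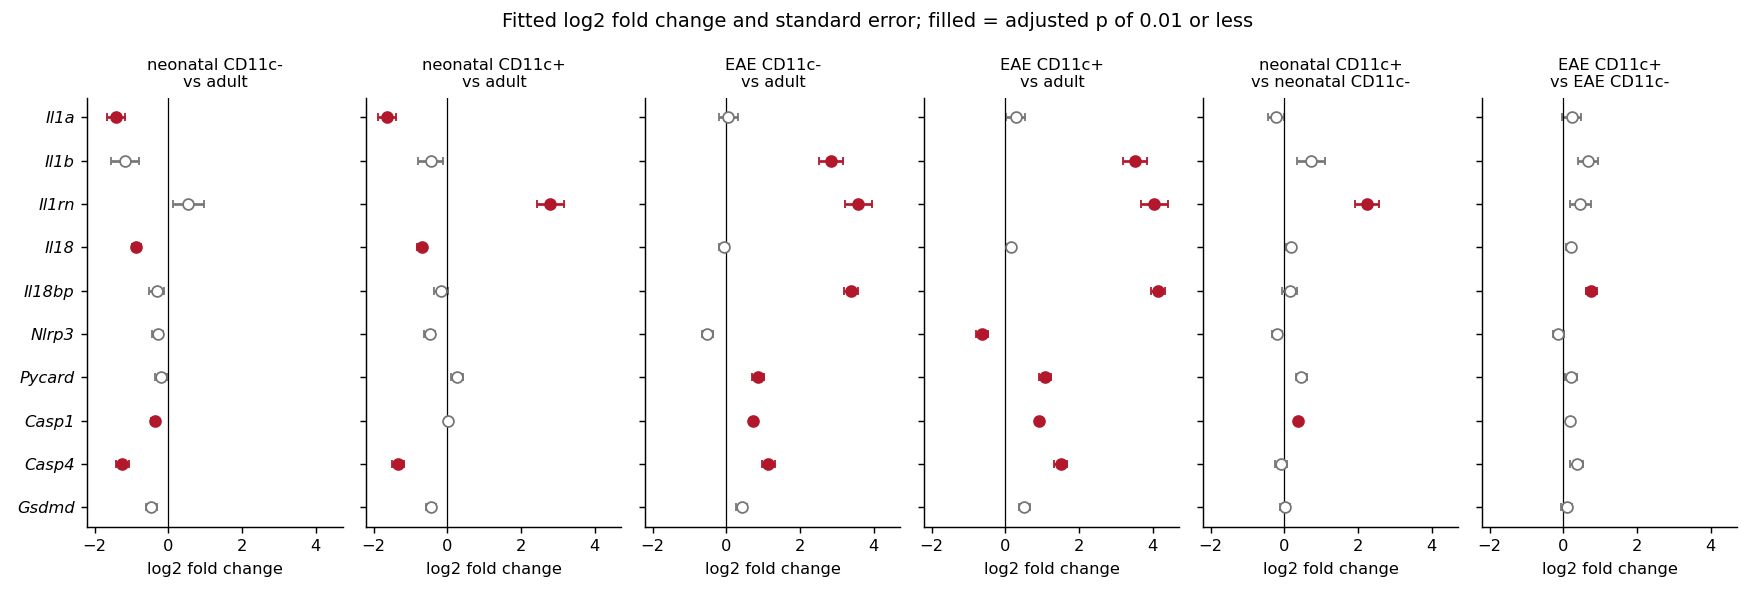
Fitted log2 fold changes (x axis) with standard errors for the 10 genes in 6 comparisons; filled red points passed an adjusted p of 0.01. The 2 right-hand panels, which compare CD11c subsets, hold 3 filled points in all, Il1rn and Casp1 in neonates and Il18bp in EAE.

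Positions below are on GRCm38. The cytokine genes did not move as a block: Il1b rose in EAE from a low adult level, whereas Il1a was already high in adults, was called lower in neonates and was not called in EAE. Il1a (ENSMUSG00000027399, chr2:129299610-129309972, minus strand) encodes IL-1 alpha, which can act without being cut. Its levels were 187, 129 and 129 CPM in adults, 144, 192 and 126 in EAE CD11c-, and 158, 182.5 and 202 in EAE CD11c+ microglia. In neonates it stood at 65.2, 54.1, 54.7 and 49.3 CPM in CD11c- and at 36.1, 38.4, 36.4 and 81.1 in CD11c+ libraries. All 8 neonatal libraries lay below every adult library, and the EAE libraries overlapped the adult range. Il1a fell by 1.41 ± 0.24 (log2, SE; adjusted p = 0.000158) in neonatal CD11c- and by 1.64 ± 0.24 (adjusted p = 2.42e-05) in neonatal CD11c+ microglia against adults, and by 2.01 in the latter (adjusted p = 6.52e-09) without libraries 1, 16 and 17. The high value of 81.1 CPM belongs to library 16. Il1a shares 222 of its 1974 exon bases with the antisense gene Gm14023, whose level was 15.1 to 24.6 CPM in adults and 1.39 to 4.94 in neonates; the strand setting of the counting is not given in the sources used here, so reads of the pair cannot be told apart there.

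Il1b (ENSMUSG00000027398, chr2:129364570-129371139, minus strand), for IL-1 beta, was low outside EAE. Adults had 4.79, 5.47 and 3.80 CPM, neonatal CD11c- microglia 1.72, 0.928, 2.90 and 2.60, and neonatal CD11c+ microglia 3.29, 3.17, 1.76 and 5.89. The EAE libraries held 29.7, 35.7 and 36.4 CPM in the CD11c- and 35.0, 61.1 and 65.6 in the CD11c+ subset. Every EAE library exceeded every adult and neonatal library, and within EAE the lowest CD11c+ library, library 1, fell inside the CD11c- range. Il1b rose by 2.84 ± 0.32 (log2, SE; adjusted p = 2.28e-06), or 7.18-fold, in EAE CD11c- and by 3.51 ± 0.32 (adjusted p = 1.08e-07), or 11.4-fold, in EAE CD11c+ microglia. The difference between the EAE subsets was 0.67 ± 0.27 in favour of CD11c+ (adjusted p = 0.168), and 0.90 (adjusted p = 0.00122) without libraries 1, 16 and 17. Neonatal CD11c- microglia, all 4 libraries of which lay below every adult library, were at -1.18 ± 0.38 against adults (adjusted p = 0.0210), which did not pass. This difference did pass by DESeq2's Wald test (adjusted p = 0.00547), with no filter on low counts (0.00507) and without libraries 1, 16 and 17 (-1.11; 0.00548).

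Per length of exon, Il1a was far more abundant than Il1b in adults, at 75.3 against 2.46 CPM per kilobase, and in EAE CD11c+ microglia the gap had narrowed to 91.6 against 28.3. Il1b reads per Il1a read lay between 0.0256 and 0.0423 in adults and between 0.0171 and 0.0912 in neonates, and between 0.186 and 0.334 in EAE, without overlap between EAE and the other groups.

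Cells other than microglia can carry Il1b, and their markers differed between these groups. The summed level of 13 neutrophil markers was 7078 to 13670 CPM in EAE CD11c- microglia, 44.7 to 84.2 in EAE CD11c+, 929 to 1919 in adults, 349 to 1860 in neonatal CD11c- and 27.6 to 38.5 in neonatal CD11c+ microglia, and no marker of the list was at 0 throughout a group. All 13 were called lower in EAE CD11c+ than in EAE CD11c- microglia. The 9 monocyte markers summed to 1031 to 1202 CPM in EAE CD11c- and 1057 to 1615 in EAE CD11c+ microglia, against 79.5 to 153 in adults, 21.4 to 110 in neonatal CD11c- and 29.3 to 49.8 in neonatal CD11c+. In EAE CD11c+ microglia this sum was mostly Fn1, also a gene of other cells, at a mean of 1123 CPM against 4.21 in adults, whereas Chil3 fell from 83.3 to 14.0 (adjusted p = 0.00456) and Ly6c2 was at 5.25 against 4.66 (adjusted p = 0.809). In EAE CD11c- microglia Fn1 was at 436, Chil3 at 492 and Ly6c2 at 35.6 CPM, all called higher than in adults. Monocyte markers were called higher against adults for 9 of 9 genes in EAE CD11c- and for 6 of 9 in EAE CD11c+, where 1 was lower. Besides Fn1, mean levels in EAE CD11c+ microglia stood above adults for Ms4a4c (42.8 against 2.045 CPM), Ccr2 (28.0 against 9.15) and Plac8 (22.9 against 2.56). Vcan was at 4.12 against 0.807 CPM and F10 at 5.91 against 0.0767. The 6 dendritic cell markers summed to 11.7 to 16.8 CPM in EAE CD11c+ and 7.82 to 10.7 in EAE CD11c- microglia. Their sums were 7.74 to 12.1 CPM in adults and 9.91 to 20.1 in neonates. Of 4 tested, 0 were called in EAE CD11c+ microglia against adults, beside 15.1% of all genes higher and 11.1% lower. Their median log2 fold change there was 1.33. The part of neutrophils, monocytes and dendritic cells in the EAE results for Il1b, Il1rn, Il18bp, Pycard, Casp1 and Casp4 was not tested.

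**Figure D3:**
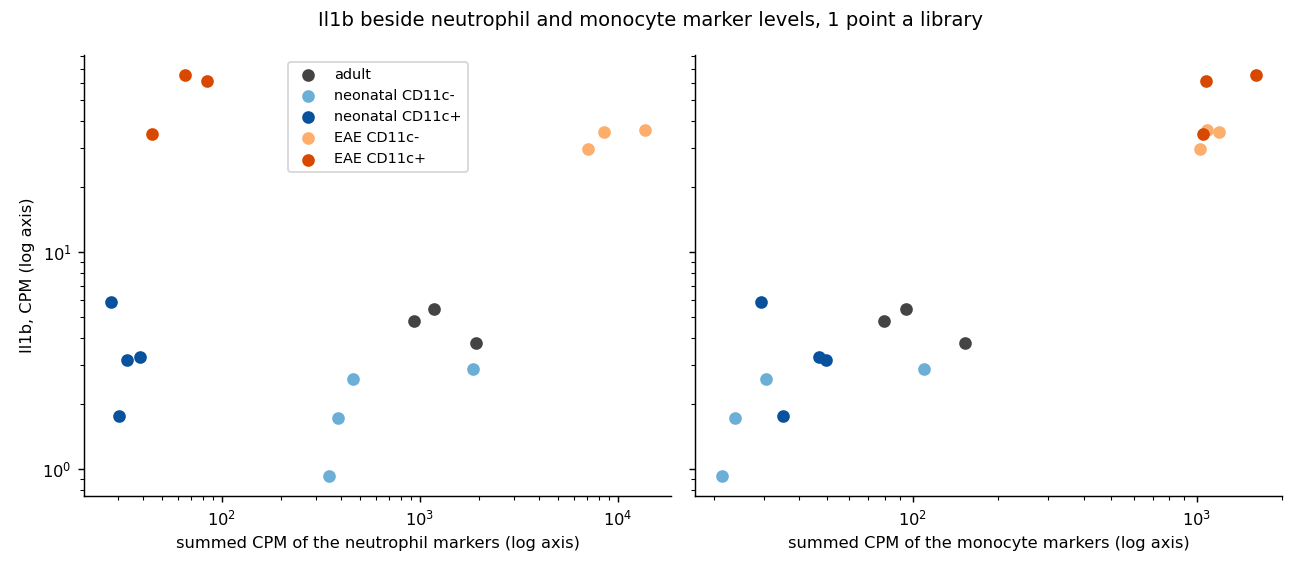
Il1b in CPM (y axis, log) against the summed CPM of 13 neutrophil markers (left) and 9 monocyte markers (right; x axes, log), 1 point a library, coloured by group. On the left the EAE libraries sit at neutrophil sums of 7078 to 13670 CPM (CD11c-) and 44.7 to 84.2 CPM (CD11c+), and on the right all 6 sit at monocyte sums of 1031 CPM or more, which in the CD11c+ libraries are mostly Fn1.

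Il1rn (ENSMUSG00000026981, chr2:24336853-24351494, plus strand) encodes the IL-1 receptor antagonist, which occupies the receptor without signalling, and of the members it had the largest difference between the neonatal subsets. Adults had 1.35, 1.29 and 2.49 CPM, and neonatal CD11c- microglia 3.62, 0.773, 3.36 and 2.04. Neonatal CD11c+ microglia had 11.5, 15.2, 12.7 and 7.49 CPM, all above every library of those groups. In EAE the levels were 15.7, 20.4 and 25.2 CPM in CD11c- and 24.5, 29.1 and 30.4 in CD11c+ libraries. Thus the order of group means ran from adult and neonatal CD11c-, which overlapped, through neonatal CD11c+ to the EAE subsets, which overlapped with each other. Relative to adults Il1rn rose by 2.80 ± 0.36 (log2, SE; adjusted p = 5.70e-06) in neonatal CD11c+, by 3.58 ± 0.37 (8.51e-07) in EAE CD11c- and by 4.04 ± 0.37 (1.08e-07) in EAE CD11c+ microglia, while neonatal CD11c- microglia were at 0.54 ± 0.42 (adjusted p = 0.338).

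Within neonates CD11c+ microglia held 4.76-fold more Il1rn than CD11c- microglia, a log2 difference of 2.25 ± 0.32 (adjusted p = 0.000102). Within EAE the same difference was 0.46 ± 0.29 (adjusted p = 0.435). The test of the difference between these subset effects gave 1.79 ± 0.43 (adjusted p = 0.0250), past 0.05 but not 0.01, and 2.05 (adjusted p = 0.00396) without libraries 1, 16 and 17. Markers of border macrophages, the macrophages of meninges and vessels, differed in the same direction between the neonatal subsets: the 8 markers summed to 1459 to 3430 CPM in CD11c+ and 909 to 1323 in CD11c- microglia, none at 0 throughout a group, and 7 of 8 were called higher in CD11c+, with a median log2 difference of 3.45 over the list. Mrc1, the marker not called, made up most of the sums (means of 1334 and 969 CPM), while Lyve1 had 258 against 22.5 and F13a1 345 against 20.3 CPM. The sums of all 8 were 48.3 to 118 CPM in adults and 66.3 to 81.8 in EAE. Their part in the neonatal difference was not tested.

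IL-18 and its soluble inhibitor moved apart in EAE, with Il18 near its adult level and Il18bp far above it. Il18 (ENSMUSG00000039217, chr9:50554827-50581840, plus strand) levels were 29.0, 25.1 and 27.1 CPM in adults, 27.3, 26.1 and 24.8 in EAE CD11c-, and 27.1, 32.3 and 30.2 in EAE CD11c+ microglia. Neonatal libraries held 11.8, 14.5, 16.1 and 16.5 CPM in CD11c- and 16.5, 16.7, 15.3 and 18.3 in CD11c+ microglia, all below every adult and EAE library. Against adults Il18 fell by 0.87 ± 0.13 (log2, SE; adjusted p = 2.82e-05) in neonatal CD11c- and by 0.70 ± 0.12 (adjusted p = 0.000155) in neonatal CD11c+ microglia. In EAE it differed from adults by -0.06 ± 0.13 in CD11c- (adjusted p = 0.811) and 0.15 ± 0.13 in CD11c+ (adjusted p = 0.411).

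Il18bp (ENSMUSG00000070427, chr7:102014885-102018690, minus strand) encodes the IL-18 binding protein, a secreted decoy that is itself induced by interferon. Its levels were 4.67, 5.04 and 3.80 CPM in adults, 4.19, 3.25, 3.59 and 3.52 in neonatal CD11c-, and 3.72, 3.28, 4.16 and 5.10 in neonatal CD11c+ microglia. In EAE it reached 43.8, 58.7 and 39.0 CPM in CD11c- and 77.0, 79.4 and 84.1 in CD11c+ microglia. The neonatal ranges overlapped the adult range, while every EAE library exceeded it and the EAE subsets did not overlap. Of all 13060 genes tested, 3239 did not overlap between the EAE subsets. Il18bp rose by 3.38 ± 0.18 (log2, SE; adjusted p = 5.23e-10), or 10.4-fold, in EAE CD11c- and by 4.14 ± 0.18 (adjusted p = 2.51e-11), or 17.7-fold, in EAE CD11c+ microglia. The CD11c+ subset exceeded the CD11c- subset in EAE by 0.76 ± 0.15 (adjusted p = 0.00276); without library 2, 3, 4 or 6 in turn the adjusted p was between 0.0110 and 0.0303, with differences from 0.65 to 0.77 in those fits. Il18bp shares 80 of its 3026 exon bases with Numa1, a spindle protein gene read at 485 to 518 CPM in adults and 372 to 526 in EAE CD11c+ microglia.

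Reads of Il18bp per read of Il18 within a library were 0.140 to 0.201 in adults, 0.214 to 0.355 in neonatal CD11c- and 0.196 to 0.278 in neonatal CD11c+ microglia. The ratio was 1.57 to 2.25 in EAE CD11c- and 2.45 to 2.84 in EAE CD11c+ microglia, with no overlap between these 2 groups or with any other. Il1rn reads per Il1b read behaved otherwise. They were 0.235 to 0.655 in adults, 0.529 to 0.692 in EAE CD11c- and 0.463 to 0.700 in EAE CD11c+ microglia, ranges that overlapped although the levels of both genes were higher in EAE. In neonates the ratio was 0.786 to 2.11 in CD11c- and 1.27 to 7.21 in CD11c+ microglia, above the adult and EAE ranges, on as few as 5 Il1rn and 6 Il1b reads in library 18. These ratios are not corrected for length, so they compare groups and not the amounts of the pair, and they were not tested.

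**Figure D4:**
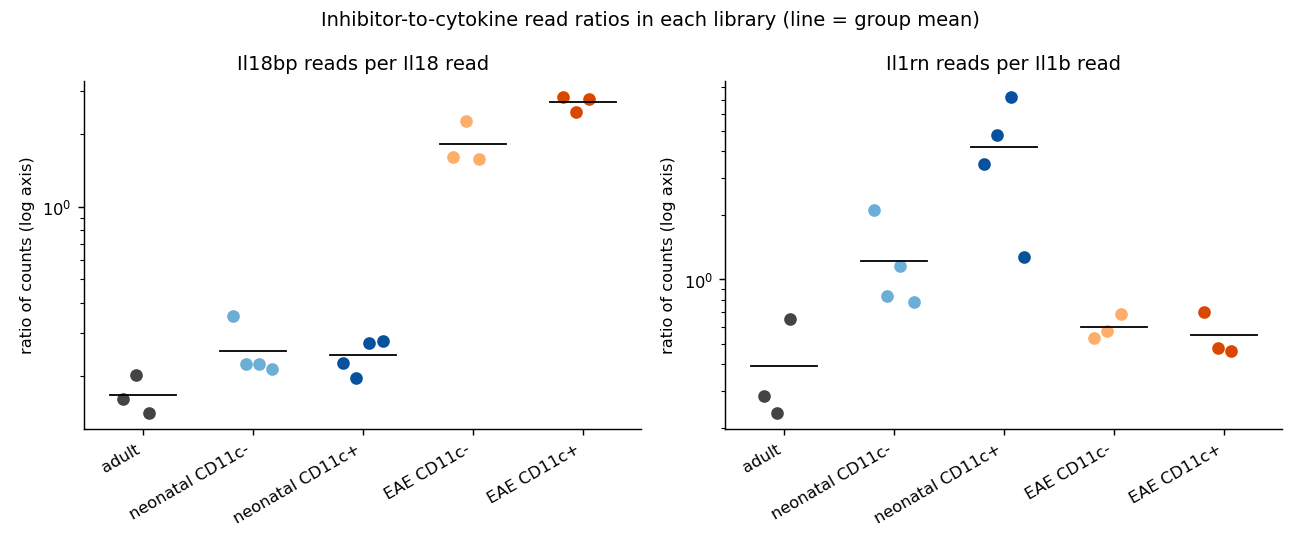
Reads of Il18bp per read of Il18 (left) and of Il1rn per read of Il1b (right) in each library (points; y axes, log), with the group mean as a line. On the left the EAE groups stand apart at 1.57 to 2.84, and on the right the neonatal CD11c+ group ranges highest, from 1.27 in library 16 to 7.21.

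Of the inflammasome parts, the sensor was lower and the adaptor and caspases were higher in EAE CD11c+ microglia than in adults. Nlrp3 (ENSMUSG00000032691, chr11:59541568-59566956, plus strand) encodes the sensor that assembles after many kinds of cell stress. Its levels were 207, 229 and 217.5 CPM in adults, 149, 168 and 142 in EAE CD11c-, and 138, 137 and 144 in EAE CD11c+ microglia. Neonates had 159.5, 197, 179 and 180.1 CPM in CD11c- and 136, 134, 135 and 221 in CD11c+ libraries. All EAE libraries and all neonatal libraries but library 16 lay below the adult range. Nlrp3 fell by 0.64 ± 0.16 (log2, SE; adjusted p = 0.00392) in EAE CD11c+ microglia against adults, with an adjusted p of 0.0118 to 0.0172 when library 2, 3, 22 or 23 was left out. The values in EAE CD11c- (-0.51 ± 0.16, adjusted p = 0.0249), neonatal CD11c- (-0.28 ± 0.15, 0.142) and neonatal CD11c+ microglia (-0.48 ± 0.15, 0.0129) did not pass. The EAE CD11c- difference did pass in a fit on only the groups compared (-0.51; adjusted p = 0.000610) and without libraries 1, 16 and 17 (-0.51; 4.10e-05), and the neonatal CD11c+ difference by DESeq2's Wald test (-0.46; 0.00966). Without library 16 alone the neonatal CD11c+ difference was -0.69 (adjusted p = 3.07e-05), and the difference from neonatal CD11c- microglia went from -0.20 ± 0.14 (adjusted p = 0.357) to -0.41 (adjusted p = 0.00844). Without libraries 1, 16 and 17 these were -0.69 (adjusted p = 6.70e-07) and -0.46 (adjusted p = 0.000373).

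Pycard (ENSMUSG00000030793, chr7:127989708-127993867, minus strand) encodes ASC, the adaptor that links the sensor to caspase-1. It was read at 96.2, 91.3 and 92.2 CPM in adults, 163, 173 and 169 in EAE CD11c-, and 130.1, 226 and 230.3 in EAE CD11c+ microglia. Neonatal levels were 67.6, 77.7, 85.0 and 93.6 CPM in CD11c- and 113, 104.5, 117 and 112 in CD11c+ libraries. Each EAE library exceeded each adult library, with library 1 the lowest of them, and the neonatal subsets did not overlap each other. Of all 13060 genes tested, 2881 did not overlap between the neonatal subsets. Pycard rose by 0.85 ± 0.16 (log2, SE; adjusted p = 0.000808) in EAE CD11c- and by 1.07 ± 0.17 (adjusted p = 5.32e-05) in EAE CD11c+ microglia. The subset difference was 0.46 ± 0.14 in neonates (adjusted p = 0.0357) and 0.22 ± 0.16 in EAE (adjusted p = 0.535); without libraries 1, 16 and 17 it passed in each, at 0.39 (adjusted p = 0.00163) and 0.44 (adjusted p = 0.00126). Against adults neonatal microglia were at -0.20 ± 0.15 in CD11c- (adjusted p = 0.327) and 0.26 ± 0.15 in CD11c+ (adjusted p = 0.182), the latter at an adjusted p of 0.00799 without the 3 libraries. Pycard shares 485 of its 3800 exon bases with Gm45205, a gene on the opposite strand.

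Casp1 (ENSMUSG00000025888, chr9:5298517-5307265, plus strand), for the caspase that cuts the cytokine precursors, stood at 44.1, 48.5 and 45.4 CPM in adults, 79.4, 78.1 and 72.5 in EAE CD11c-, and 81.6, 92.8 and 87.8 in EAE CD11c+ microglia. It was read at 37.0, 34.0, 34.1 and 38.2 CPM in neonatal CD11c- and 47.8, 42.0, 49.6 and 47.3 in neonatal CD11c+ libraries. The EAE libraries were all above and the neonatal CD11c- libraries all below the adult range, which the neonatal CD11c+ libraries straddled. Casp1 rose by 0.74 ± 0.10 (log2, SE; adjusted p = 2.16e-05) in EAE CD11c- and by 0.93 ± 0.10 (adjusted p = 8.61e-07) in EAE CD11c+ microglia. The smaller neonatal calls were a fall of CD11c- below adults, -0.36 ± 0.10 (adjusted p = 0.00590), and a rise of neonatal CD11c+ above CD11c-, 0.38 ± 0.09 (adjusted p = 0.00659). Leaving out a library ended the first call for libraries 18, 19, 20, 21, 22 and 23 (adjusted p 0.0105 to 0.0361) and the second for libraries 13, 15, 16, 18 and 19 (0.0167 to 0.0255), and a fit on only the groups compared ended both (0.0520 and 0.0354).

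Casp4 (ENSMUSG00000033538, chr9:5308828-5336783, plus strand) is the mouse counterpart of the caspase that responds to bacterial lipopolysaccharide inside cells, also known as caspase-11, and lies beside Casp1 on chromosome 9. It had the widest span of the inflammasome parts. Adults had 28.7, 27.7 and 27.1 CPM, EAE CD11c- microglia 64.1, 65.5 and 54.9, and EAE CD11c+ microglia 87.2, 74.1 and 75.9. The neonatal values were 16.6, 9.28, 11.7 and 9.64 CPM in CD11c- and 12.8, 8.19, 11.2 and 11.9 in CD11c+ libraries. The adult range lay clear between the neonatal libraries below it and the EAE libraries above it. Casp4 rose by 1.14 ± 0.17 (log2, SE; adjusted p = 7.44e-05) in EAE CD11c- and by 1.50 ± 0.17 (adjusted p = 2.08e-06) in EAE CD11c+ microglia, and fell by 1.25 ± 0.17 (adjusted p = 2.03e-05) in neonatal CD11c- and by 1.34 ± 0.17 (adjusted p = 5.15e-06) in neonatal CD11c+ microglia. The subsets differed by -0.09 ± 0.17 in neonates (adjusted p = 0.755) and by 0.36 ± 0.17 in EAE (adjusted p = 0.247), where the ranges did not overlap. Such a lack of overlap between the EAE subsets was found for 3239 of all 13060 genes tested.

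Gsdmd (ENSMUSG00000022575, chr15:75862327-75867408, plus strand) encodes gasdermin D, whose cut fragment forms the membrane pore through which IL-1 beta leaves the cell. It was the most abundant member per exon length in every group, from 65.8 CPM per kilobase in neonatal CD11c- to 129.6 in EAE CD11c+ microglia. Levels were 217, 233 and 195 CPM in adults, 297, 289 and 279.8 in EAE CD11c-, and 247, 358 and 319.5 in EAE CD11c+ microglia. Neonatal CD11c- libraries held 116, 178.5, 159.9 and 172 CPM and CD11c+ libraries 159, 151, 160.1 and 162. As for Casp4, EAE libraries stood above, and neonatal libraries below, every adult library, but the differences did not pass: 0.42 ± 0.15 (adjusted p = 0.0452) and 0.52 ± 0.15 (adjusted p = 0.0103) in EAE CD11c- and CD11c+, and -0.46 ± 0.14 (adjusted p = 0.0148) and -0.45 ± 0.14 (adjusted p = 0.0138) in neonatal CD11c- and CD11c+ microglia. Without library 1 the EAE CD11c+ difference was 0.66 and passed (adjusted p = 0.00128), and without libraries 1, 16 and 17 all 4 differences passed, with adjusted p of 0.000377, 7.80e-06, 0.00213 and 0.000108. DESeq2's Wald test called 3 of the 4, all but EAE CD11c- (adjusted p = 0.00248 to 0.00789). The direct contrast of neonatal with EAE microglia passed, at -0.92 ± 0.10 (adjusted p = 3.65e-07).

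Libraries of the neonatal CD11c+ group were alike for most members except library 16. That library had the highest level of the group for 6 of 10 members, 1 of them at least 2-fold above the next library, and the lowest for Il1rn. The share of all genes tested that were highest in library 16 is not given here. Library 16 also stood apart in genes that stimulated cells switch on. Of 18 NF-kB genes and targets, 15 were highest in library 16, 9 of them at least 2-fold above the next library, and of 19 immediate early and stress genes all 19 were highest there, 18 of them by that margin. The NF-kB list summed to 3935 CPM in library 16 against 1368 to 1407 in the other CD11c+ libraries, and the immediate early list to 27780 against 2705 to 3292. Tnfaip3, a brake on NF-kB named here after its values were seen, was at 632 CPM against 91.0 to 92.2. Library 16 aside, the immediate early list was highest in adults, at 25080 to 53010 CPM, against 4557 to 8903 in neonatal CD11c-, 11080 to 12190 in EAE CD11c- and 6496 to 8527 in EAE CD11c+ microglia, and Nlrp3 was likewise highest in adults and library 16. The part of this response in the levels of Il1a and Nlrp3 was not tested.

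Cells respond to these cytokines through paired receptor chains. Against adults, 3 of 16 receptor and adaptor genes were higher and 1 lower in EAE CD11c-, 2 and 1 in EAE CD11c+, 3 and 2 in neonatal CD11c-, and 3 and 4 in neonatal CD11c+ microglia. Over all genes tested the shares higher and lower were 11.0% and 4.72% in EAE CD11c- and 15.1% and 11.1% in EAE CD11c+. In neonates they were 13.2% and 12.1% in CD11c- and 18.0% and 15.3% in CD11c+ microglia. The medians of the list were 0.06, 0.18, -0.09 and -0.14 (log2). Il1r1, the signalling receptor, had mean levels between 4.19 and 7.29 CPM over the 5 groups and was not called in any comparison. Its partner Il1rap had 11.4 to 17.6 CPM and was not called either, and Il1rl2, the IL-36 receptor, had 32.5 to 56.0 and was also not called. Of the signalling genes downstream, Irak2, a kinase relative that joins the receptor complex, fell by 0.93 ± 0.12 (adjusted p = 6.33e-06) in the CD11c- and by 0.76 ± 0.12 (adjusted p = 3.57e-05) in the CD11c+ subset of neonates, and Myd88, the shared adaptor, by 0.58 ± 0.16 (adjusted p = 0.00748) and by 0.54 ± 0.16 (adjusted p = 0.00892).

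The remaining 5 of 8 receptor subunits were called against adults in at least 1 group. Il1r2, a decoy receptor for IL-1, had 18.8 ± 6.51 CPM (SD, n = 3) in EAE CD11c- against 1.53 ± 0.51 in adults, rising by 3.61 ± 0.44 (log2, SE; adjusted p = 6.97e-06), and was lower in EAE CD11c+ than in EAE CD11c- microglia by -2.72 ± 0.41 (adjusted p = 0.000326), as the neutrophil markers were. Il1rl1, the IL-33 receptor ST2, fell by 1.26 ± 0.16 (adjusted p = 1.20e-05) in EAE CD11c- and by 1.79 ± 0.17 (adjusted p = 2.12e-07) in EAE CD11c+ microglia and rose by 0.84 ± 0.14 (adjusted p = 0.000177) in neonatal CD11c- and by 0.58 ± 0.14 (adjusted p = 0.00284) in neonatal CD11c+ microglia. Sigirr, a damping member of the receptor family, rose in both neonatal groups (7.95 ± 2.78 and 8.89 ± 1.79 CPM, n = 4, against 1.10 ± 0.27, n = 3, in adults; adjusted p = 0.000105 and 3.80e-05) and in EAE CD11c+ microglia (adjusted p = 0.00435). Of the IL-18 receptor chains, Il18rap rose against adults in all 4 groups, most in EAE CD11c- at 42.8 ± 9.88 CPM, while Il18r1 rose in EAE CD11c- (adjusted p = 0.00132), to 3.96 ± 1.61 CPM, and differed by -1.82 ± 0.50 between the EAE subsets (adjusted p = 0.0307). The neutrophil markers were also highest in EAE CD11c- microglia, and their part in the values of Il1r2, Il18r1, Il18rap and Il1f9 was not tested.

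**Figure D5:**
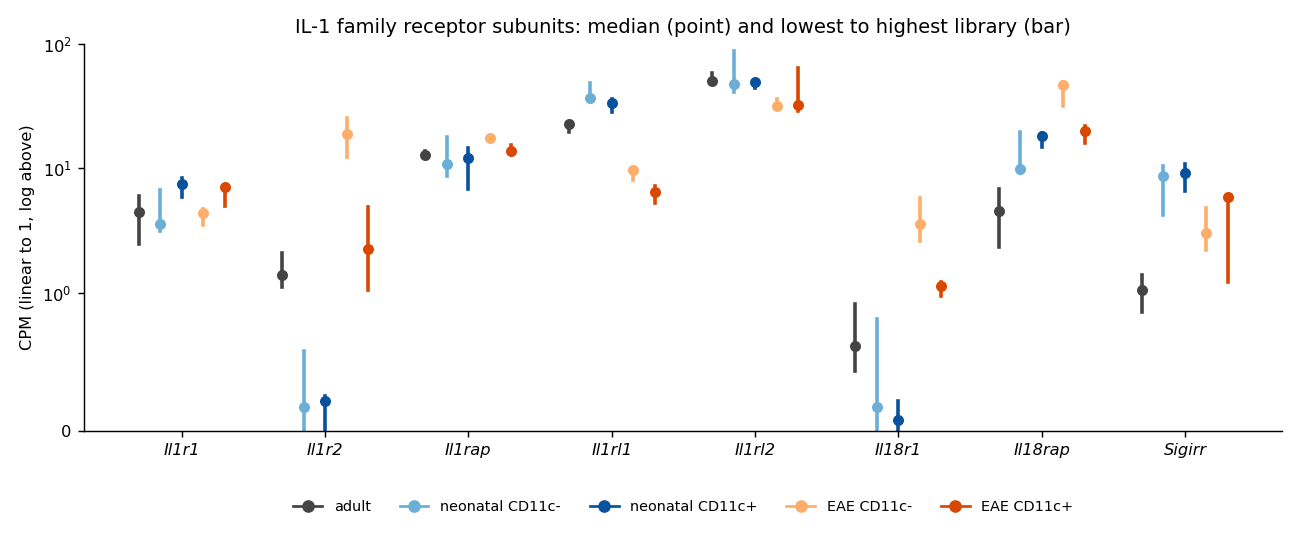
Levels of 8 IL-1 family receptor subunits in CPM (y axis, linear to 1 and log above) in the 5 groups; points are medians and bars run from the lowest to the highest library. Il1r2 and Il18r1 are highest in EAE CD11c-, Il1rl1 is lowest in the EAE groups, and the levels of Il1r1 and Il1rap overlap between adults and the other groups except EAE CD11c- for Il1rap.

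Other ligands of the family were scarce. Of 6 listed (Il33 and the IL-36 subfamily under their older symbols), only Il1f9, for IL-36 gamma, had enough reads to be tested. It had 8.14 CPM or more in EAE CD11c- libraries, with a mean of 14.3 ± 7.17 (SD, n = 3) against 0.639 ± 0.596 in adults (adjusted p = 7.12e-05), and was lower in EAE CD11c+ microglia, at 0.485 ± 0.451 (adjusted p = 0.000311). Il1f5, Il1f6, Il1f8 and Il1f10 had 0 counts in all 17 libraries.

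Other inflammasome genes were listed as 22 symbols, of which Nlrp6 and Nlrp12 had 0 counts in every library. Of 19 tested, 1 was higher and 6 lower in neonatal CD11c-, 3 higher and 7 lower in neonatal CD11c+, 2 higher and 0 lower in EAE CD11c-, and 3 higher and 1 lower in EAE CD11c+ microglia, all against adults. Among all genes tested, 13.2% were higher and 12.1% lower in neonatal CD11c-, and 18.0% and 15.3% in neonatal CD11c+. For EAE these shares were 11.0% and 4.72% in CD11c- and 15.1% and 11.1% in CD11c+ microglia. The sensor gene Nlrp1b had 146 ± 28.8 CPM in adults (SD, n = 3) and 47.1 ± 3.21 and 40.8 ± 4.75 in neonatal CD11c- and CD11c+ microglia (n = 4), adjusted p = 5.95e-06 and 9.45e-07; Nlrp1a and Nlrp1b are related copies between which reads could be split. Gsdme, another pore gene, fell by 1.54 ± 0.20 (log2, SE; adjusted p = 1.03e-05) and 1.80 ± 0.20 (adjusted p = 9.72e-07) in the same groups. Txnip, a regulator of glucose uptake that can bind NLRP3, fell in neonatal CD11c- (adjusted p = 1.35e-05), neonatal CD11c+ (adjusted p = 1.18e-06) and EAE CD11c+ microglia (adjusted p = 1.93e-05). Mefv, for pyrin, rose in both EAE groups, to 6.73 ± 0.72 CPM in CD11c- and 3.50 ± 0.45 in CD11c+ microglia against 0.615 ± 0.255 in adults (n = 3 each). Naip2, of a family of near-identical bacterial sensors, rose by 0.54 ± 0.12 (log2, SE; adjusted p = 0.00232) in EAE CD11c- and by 0.72 ± 0.12 (adjusted p = 9.75e-05) in EAE CD11c+ microglia. CD11c+ microglia exceeded the CD11c- subset in Nlrc3, by 1.73 ± 0.36 (adjusted p = 0.00293) in neonates and by 1.62 ± 0.35 (adjusted p = 0.00537) in EAE.

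Nlrc4, another of the listed inflammasome genes, was higher in the neonatal CD11c+ subset. It had 6.95 ± 2.71 CPM there (SD, n = 4) against 0.973 ± 0.216 in neonatal CD11c- microglia, a log2 difference of 2.79 ± 0.37 (SE, adjusted p = 5.50e-05). In EAE the CD11c+ subset had 0.873 ± 0.617 and the CD11c- subset 1.18 ± 0.226 CPM (n = 3 each), and the test of the difference between the neonatal and EAE subset effects passed at 3.29 ± 0.64 (adjusted p = 0.00680). Border macrophage markers moved with the same neonatal contrast, as given above, and their part was not tested.

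Of the 18 NF-kB genes and targets, 7 were lower and 0 higher in neonatal CD11c-, 4 and 0 in neonatal CD11c+, and 0 lower and 2 higher in each EAE group, all against adults. The shares of all genes tested were 12.1% lower and 13.2% higher in neonatal CD11c-, and 15.3% and 18.0% in neonatal CD11c+. They were 4.72% lower and 11.0% higher in EAE CD11c-, and 11.1% and 15.1% in EAE CD11c+ microglia. Tlr2, a receptor for bacterial lipoproteins, rose by 0.57 ± 0.13 (log2, SE; adjusted p = 0.00389) in EAE CD11c- and by 1.48 ± 0.14 (adjusted p = 1.13e-07) in EAE CD11c+ microglia. Il6, for another inflammatory cytokine, fell from 6.28 ± 1.99 CPM (SD, n = 3) in adults to 0.523 ± 0.368 in neonatal CD11c- (n = 4; adjusted p = 6.28e-06) and 0.434 ± 0.257 in neonatal CD11c+ microglia (n = 4; adjusted p = 1.50e-06), near the level of 3 counts.

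Among the 9571 tested genes with a mean of at least 10 CPM in some group, those whose profile over the 17 libraries was most like a member's were found by the root mean square difference of centred log2 CPM. For Il1b these were Scimp, AW112010 and Itgb7, at 0.36, 0.38 and 0.41 against a standard deviation of 1.93 for Il1b itself. For Il18bp they were Ifit2, Cd72 and Irf7, at 0.31, 0.33 and 0.38 against 1.92. For Il1rn they were Cd44, Pla2g7 and Gm49339, at 0.53, 0.54 and 0.56 against 1.67. The nearest genes were Rnf19b, Hrh2 and Btbd19 for Il1a, Itpk1 and Cd300c2 for Il18, and Trim8, Zfp319 and Iffo2 for Nlrp3. They were Mvp, Snx1 and Rassf3 for Pycard, C1qb, Plekhf2 and Mapkapk3 for Casp1, Srgn, Phf11d and Kdr for Casp4, and Rnf114, Ppfia4 and Myd88 for Gsdmd, at 0.11 to 0.29. Outside Il1b, Il18bp and Il1rn, the members' own standard deviations ran from 0.28 for Nlrp3 to 1.23 for Casp4. The likeness is over libraries of the same 5 groups and describes shared group differences only.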

How the data were processed

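RNA from sorted microglia was sequenced as single reads after TruSeq library preparation. Per the study's methods and the submitters' processing notes, reads were aligned to GRCm38 with STAR and counted per Ensembl gene with HTSeq 0.5.4. The processing notes give the STAR version as 2.3.11, which the methods write differently. The authors deposited raw counts, 1 table a library, for 41388 IDs. The strand setting is not given in the sources used here. Samples were grouped by their titles.

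Counts were scaled by TMM and tested with edgeR 4.0.16 (R 4.3.3; quasi-likelihood test, 1 model of 5 groups, genes with at least 1 CPM in at least 3 libraries, Benjamini-Hochberg adjustment over all genes). Log2 CPM used a prior count of 2. Levels are CPM, mean ± SD; SE is of the log2 fold change. A count of 0 allows up to 3 counts, for counting error only. The fit was tested on simulated data. Replicate counts differed by more than sampling noise in every pair. The members and gene lists were chosen with earlier results of these data known. Named genes were the members, receptor subunits, up to 4 called genes a list and comparison with the smallest adjusted p, and the 3 nearest profiles a member, of which 1 is not reported here. Alternatives were DESeq2 1.42.0, its size factors, no filter, no mitochondrial genes, only the groups compared, other thresholds and leaving out libraries. Positions and exon lengths are from GENCODE (GRCm38).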

Additional observations from a re-analysis of the deposited data

Results flagged for a closer look

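In the neonatal CD11c+ group, library 16 lay far from the other 3 libraries for 2 members. For Il1a it had 81.1 CPM against 38.4 in the nearest library, a gap of 0.948 of the whole range of the group. For Nlrp3 it had 220.9 CPM against 136, a gap of 0.973 of the range. Both exceed Dixon's 95% critical value for a group of 4. In all, 20 combinations of member and group were checked this way, and chance gives about 1 such value in 20.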

How the results depend on the processing

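Over all members, comparisons and alternatives, 1160 log2 fold changes were recomputed: 1080 kept their direction and side of the threshold, 24 were no longer called, 30 became called and 26 changed sign, all of these from values that were not called. The number of members called in EAE CD11c- against adults was 6 to 6 when libraries were left out in turn, and 6 to 8 in EAE CD11c+, 3 to 4 in neonatal CD11c-, 4 to 5 in neonatal CD11c+, 1 to 2 between neonatal subsets, 0 to 1 between EAE subsets, 9 to 9 for neonates against EAE and 0 to 0 for the difference of subset effects. Between neonatal subsets 1 member was called with no filter, with only the groups compared and with a log2 fold change of at least 1. Between EAE subsets 0 were called with only the groups compared and with that fold, and in neonatal CD11c- against adults 2 with that fold. For the difference of subset effects 1 was called by DESeq2, with no filter and at an adjusted p of 0.05. Leaving out libraries 1, 16 and 17 together, chosen after seeing the data, gave 6 members in neonatal CD11c-, 7 in neonatal CD11c+, 8 in EAE CD11c- (Nlrp3 among them, lower) and 8 in EAE CD11c+ against adults, 4 between neonatal subsets, 3 between EAE subsets and 1 for the difference of subset effects. The cause of these changes was not tested, and the share of all genes called in each refit is not given here.

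Sign changes with those 3 libraries left out were Casp4 (0.058) and Gsdmd (-0.12) between neonatal subsets, and Il1b (-0.55) and Pycard (-0.051) for the difference of subset effects; with no filter, Il18 came to 0.00097 there. With single libraries left out, Casp1 in neonatal CD11c+ against adults ran from -0.0096 to 0.070, Il1a in EAE CD11c- from -0.13 to 0.25, Casp4 and Gsdmd between neonatal subsets from -0.19 to 0.098 and from -0.11 to 0.078, and Gsdmd between EAE subsets from -0.026 to 0.23. For the difference of subset effects Il1b ran from -0.26 to 0.32, Il18 from -0.12 to 0.030, Nlrp3 from -0.28 to 0.0038 and Gsdmd from -0.22 to 0.038. No paired analysis was possible because the groups share no library numbers and neither the labels nor the methods say which libraries came from the same cell sort; neonatal subsets may share sorts, so pairing is unknown rather than absent. Il1b and Il1rn in adults and neonatal CD11c- microglia rest on few reads, which limits their precision.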
